A study of Mus musculus with 18 samples.

Results

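The 26S proteasome genes described here are the 42 of 12205 genes in the deposited table whose symbol begins with Psma, Psmb, Psmc, Psmd, Psme, Psmf or Psmg and a number, without the 5 inducible genes Psmb8, Psmb9, Psmb10, Psme1 and Psme2. They comprise 14 subunits of the 20S core, 17 subunits of the 19S cap, 4 chaperones of 20S assembly, 3 chaperones of 19S base assembly, 3 alternative caps and inhibitors, and Psmc3ip. Psmc3ip is a cofactor of meiotic recombination that the name rule takes in although it is no proteasome subunit. The cells were wild-type primary astrocytes of newborn (P0 to P2) C57BL mice, of both sexes pooled, thawed and grown in a commercial astrocyte medium. All cells had a total of 120 h in culture: untreated cells had no cytokine, and treated cells received 20 ng/ml TNFα with 0.25 ng/ml IL-1β for the last 24 h (after 96 h) or the last 48 h (after 72 h). RNA-seq and ribosome profiling (sequencing of the mRNA fragments that ribosomes protect) were made from portions of the same lysates, in 3 batches (A, B and C) for each of the 6 groups, 18 libraries in all. Whether the batches came from separate animals is not stated.

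The deposited table gives 1 log2 value against untreated cells for each gene, assay and time, so no value has a standard deviation or a p-value here, the depth of the libraries is unknown, and no difference could be set against the spread between batches. A gene is counted as higher or lower where its log2 value was at least 0.5 or at most -0.5, and counts are read beside the share of all 12205 genes past the same limit. Translation efficiency is the footprint signal relative to the RNA. Levels were not analysed, so the identity of the cells could not be checked from levels. All 9 astrocyte markers listed were in the table, with a median RNA value of -1.21 at 24 h and a range from -2.69 to 2.17. Of the markers of other cells, 2 of 9 for microglia and macrophages, 4 of 7 for oligodendrocytes, 3 of 5 for neurons, 2 of 4 for endothelial cells and 4 of 4 for fibroblasts were in it. The 4 fibroblast markers had RNA values from -0.96 to 4.16 at 24 h and from -1.16 to 5.73 at 48 h. The macrophage marker Adgre1 had 0.57 and 7.55, and the microglial marker Tmem119 had 0.18 and 0.09. At 24 h the oligodendrocyte markers ranged from -0.45 to 1.90, and at 48 h from -0.73 to 2.29. Ranges at 24 h were -2.49 to 0.17 for neurons and -3.54 to -1.04 for endothelial cells. The part of other cells in the proteasome values was not tested. In these bulk libraries a change in the share of a cell type and a change in RNA per cell cannot be told apart.

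The proteasome degrades proteins tagged with ubiquitin. Its barrel-shaped 20S core has outer rings of alpha subunits, which gate entry, and inner rings of beta subunits, of which Psmb5, Psmb6 and Psmb7 carry the active sites. The 19S cap binds ubiquitin, removes it and threads the substrate into the core with a ring of ATPases. In cells exposed to inflammatory cytokines, Psmb8, Psmb9 and Psmb10 can replace the active-site subunits to form the immunoproteasome, and Psme1 and Psme2 form the PA28 cap. When proteasome activity falls short, the transcription factor Nfe2l1 activates proteasome genes through antioxidant response elements in their promoters.

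Promoters were available for 35 of the 42 genes (37 start sites, RefSeq on GRCm38.p6, 250 bases before to 50 after each start). The antioxidant response element was searched as TGACNNNGC on both strands, since it is the element through which proteasome genes are known to be activated. It was present in 6 of the 37 promoters (16.2%), in 14.2% of 12074 promoters of genes in the deposited table and in 12.4% of 32851 promoters of all genes. The stretches around the match are shown 5′ to 3′ on the gene's strand, with the match in capitals, for the 6 genes.
Psmb5, chr14:54618009-54618068, minus strand: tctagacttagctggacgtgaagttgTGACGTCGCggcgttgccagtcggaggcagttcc
Psmb6, chr11:70525322-70525356, plus strand: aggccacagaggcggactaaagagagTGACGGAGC
Psmd9, chr5:123228133-123228189, plus strand: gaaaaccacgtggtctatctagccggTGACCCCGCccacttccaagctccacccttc
Psmd12, chr11:107479278-107479314, plus strand: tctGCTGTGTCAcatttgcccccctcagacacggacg
Psmc6, chr14:45329574-45329630, plus strand: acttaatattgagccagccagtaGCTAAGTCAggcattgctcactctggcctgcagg
Psme4, chr11:30771758-30771786, plus strand: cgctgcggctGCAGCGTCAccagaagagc
In Psmb5, Psmb6 and Psmd9 the match reads forward, and in Psmd12, Psmc6 and Psme4 it is on the opposite strand. The RNA values of the 6 genes at 24 h lay from -0.33 for Psmd9 to 0.45 for Psmc6 in the authors' deposited table, and none was past 0.5. A match is a run of letters and not a tested site.

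Over the 42 genes, RNA was moderately above untreated cells and footprints more so. The median log2 RNA value was 0.34 at 24 h and 0.25 at 48 h, beside -0.03 and -0.02 over all genes. At 24 h, 7 of the 42 genes were higher in RNA (14.8% of all genes were) and 1 was lower (21.1% of all genes). At 48 h, 7 were higher (16.5% of all genes) and 3 were lower (22.8%). The sign was positive for 29 of the 42 at 24 h (48% of all genes) and for 29 at 48 h (48.5%). Past a value of 1, that is a doubling, were 3 genes at 24 h (7.54% of all genes) and 2 at 48 h (8.11%). The single gene at or below -1 at 24 h was Psmc3ip (9.55% of all genes).

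Median footprint values were 0.46 at 24 h and 0.38 at 48 h, beside 0.01 over all genes at both times. At 24 h, 18 of the 42 genes were higher (17.2% of all genes) and 1 was lower (18%). At 48 h, 15 were higher (17.7%) and 1 was lower (18%). Footprints were above 0 for 38 of the 42 at 24 h (50.9% of all genes) and for 37 at 48 h (50.8%), and past 1 for 4 (7.87%) and 3 (8.13%). Translation efficiency had a median of 0.11 at both times, beside -0.03 and -0.05 over all genes. It was higher for 8 of the 42 at 24 h (12% of all genes) and for 8 at 48 h (14.5%), and lower for 0 (9.96%) and 1 (11.9%). It was above 0 for 25 at 24 h (47.2% of all genes) and for 29 at 48 h (45.8%), and past 1 for 2 (1.79%) and 1 (2.85%).

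**Figure D1:**
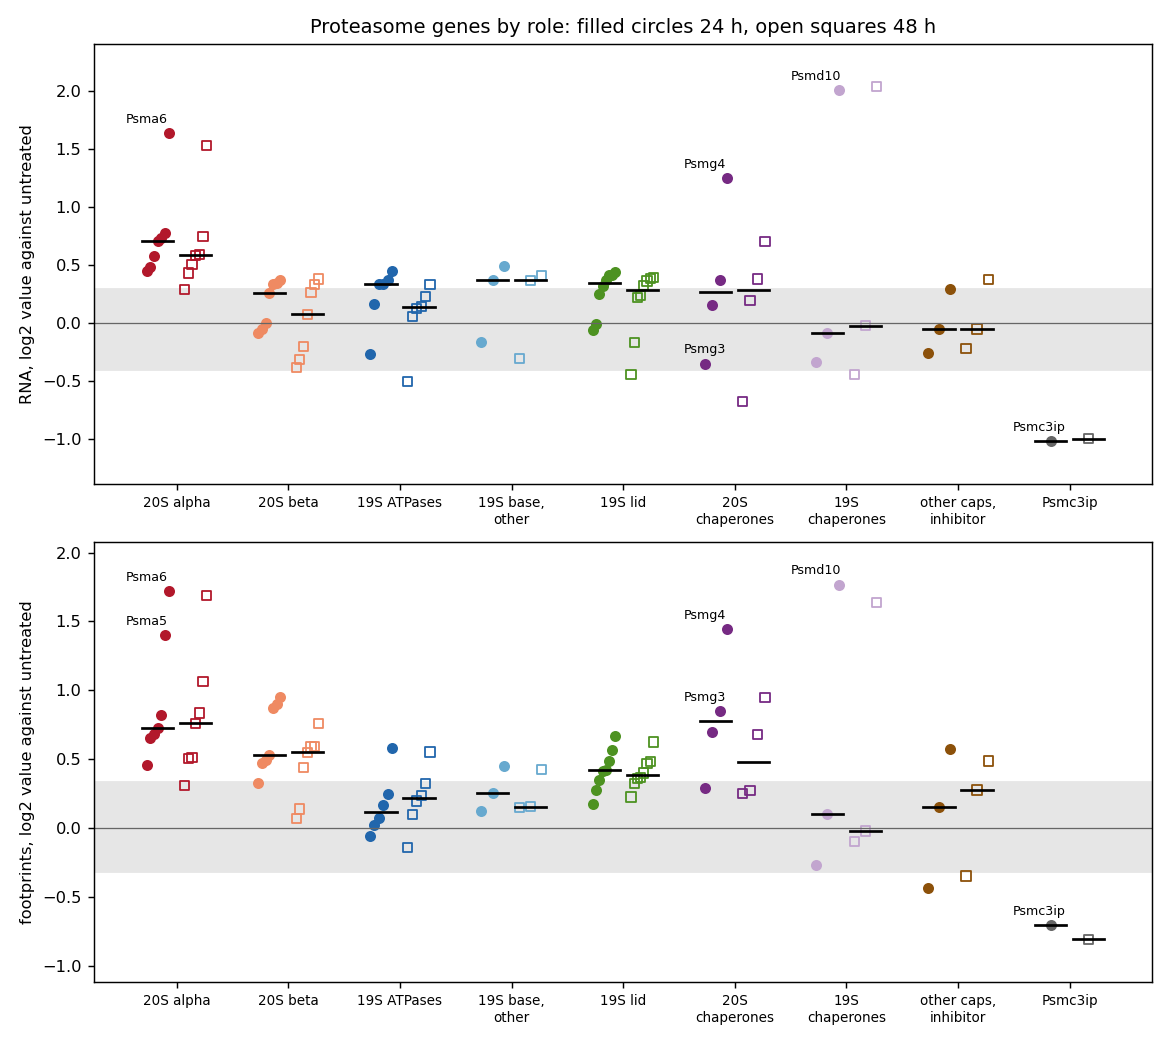
Log2 values against untreated cells of RNA and of footprints at 24 h and 48 h for each of the 42 genes, grouped by role (filled circles 24 h, open squares 48 h), with black bars at the group medians and a grey band for the interquartile range of all genes at 24 h. The alpha ring lies above 0 in each panel, with an RNA median of 0.71 at 24 h, and Psmd10 and Psmc3ip are the highest and the lowest gene in RNA.

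The 7 alpha-ring genes, whose products form the gate of the core, were the group of subunits with the highest RNA values. Their median was 0.71 at 24 h and 0.59 at 48 h, and 5 of the 7 were higher at each time, beside 14.8% and 16.5% of all genes. Psma6 stood above the others: the authors' deposited table gave RNA values of 1.64 at 24 h (3.12-fold) and 1.53 at 48 h, and footprint values of 1.72 (3.30-fold) and 1.69. Its translation efficiency was -0.07 and 0.05 in the authors' deposited table, so its RNA and footprints were higher to a like degree. The other alpha genes had RNA values from 0.45 (Psma7) to 0.77 (Psma3) at 24 h, so that the ring had a common direction with 1 member well above the rest.

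Psma5 was the alpha subunit whose footprints exceeded its RNA the most. In the authors' deposited table its RNA was 0.74 and 0.59, its footprints were 1.40 and 1.06, and its translation efficiency was 0.60 and 0.45 at 24 h and 48 h. Psma3 had similar RNA values at both times (0.77 and 0.75), but its footprints were 0.72 at 24 h and 0.31 at 48 h in the authors' deposited table. Its translation efficiency at 48 h, -0.52, was the single value of the 42 at or below -0.5 in the authors' deposited table.

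Psma6 has 2 start sites in the promoter table, and the 60 bases before each are shown because it had the highest values of the core. The capitals mark CCAAT, a common promoter box, which was searched on both strands.
Psma6, first start, chr12:55384162-55384221, plus strand: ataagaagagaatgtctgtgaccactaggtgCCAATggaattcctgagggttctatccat
Psma6, second start, chr12:55398765-55398824, plus strand: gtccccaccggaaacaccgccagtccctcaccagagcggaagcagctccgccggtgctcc
CCAAT was present in 13 of the 37 proteasome promoters (35.1%), in 37.6% of those of genes in the table and in 37.4% of all promoters. The kB motif of NF-kB, searched on both strands as GGG and TTTCC with any 2 bases between, was in 0 of the 37, in 1.65% of those of genes in the table and in 1.63% of all promoters, which says only that these letters are not in the windows searched. The gene spans chr12:55384222-55418459 and has Nfkbia, the NF-kB inhibitor that NF-kB itself induces, 70949 bp away. Nfkbia, named after its values were seen, had RNA values of 3.14 and 2.87 in the authors' deposited table. Over the 42 genes, the nearest measured protein-coding neighbour was higher in RNA at 24 h for 6 (14.8% of all genes) and lower for 11 (21.1% of all genes), with a median of -0.06, which is near the background.

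The 7 constitutive beta-ring genes had lower RNA medians than the alpha ring, and their footprint medians lay closer to those of the alpha ring (0.72 and 0.76). Their median RNA value was 0.26 at 24 h and 0.07 at 48 h, and 0 of 7 were higher at either time, the range at 24 h being -0.08 to 0.37. With 14.8% and 16.5% of all genes higher, a count of 0 among 7 genes is near the background. Their median footprint value was 0.53 at 24 h and 0.55 at 48 h, with 4 of 7 higher at each time, beside 17.2% and 17.7% of all genes. Translation efficiency was higher for 4 of the 7 at each time, beside 12% and 14.5% of all genes. Its medians were 0.51 and 0.59, and those of the alpha ring were 0.08 and 0.05.

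**Figure D2:**
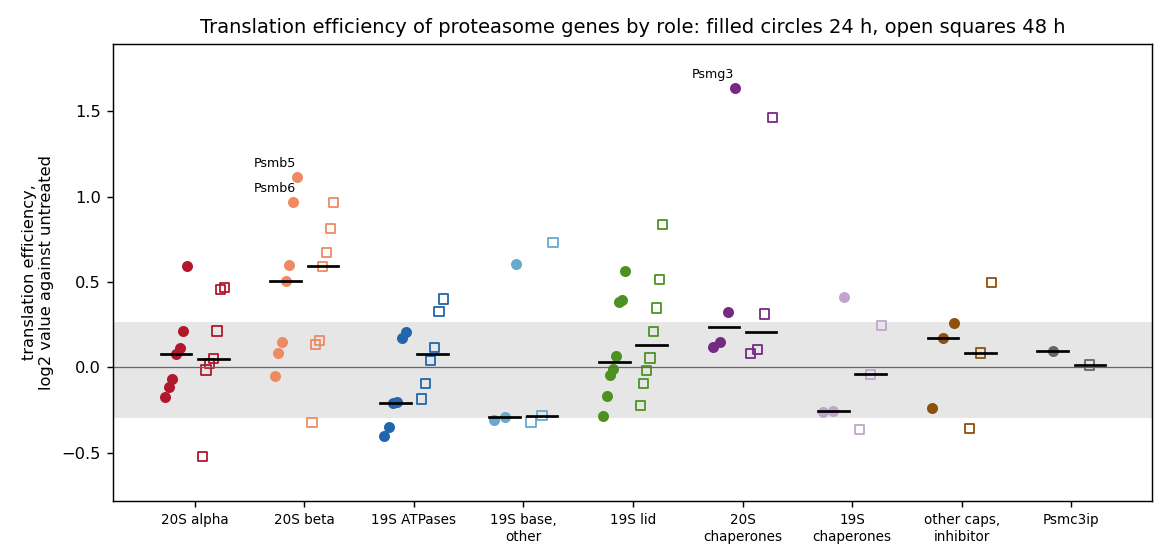
Log2 translation efficiency against untreated cells at 24 h and 48 h for each of the 42 genes, grouped by role (filled circles 24 h, open squares 48 h), with black bars at the group medians and a grey band for the interquartile range of all genes at 24 h. The beta ring has the highest median of the subunit groups, 0.51 at 24 h and 0.59 at 48 h, and Psmg3 is the highest single gene at both times.

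Psmb5, the chymotrypsin-like active-site subunit, had RNA values of -0.08 and -0.38 and footprint values of 0.90 and 0.14 at 24 h and 48 h in the authors' deposited table. Its translation efficiency was 1.11 at 24 h and 0.59 at 48 h in the authors' deposited table, and the footprint difference between the times, -0.76, was the largest drop among the 42 genes. Psmb6, the caspase-like subunit, had RNA values of -0.0011 and -0.31, footprint values of 0.95 and 0.59, and translation efficiencies of 0.97 and 0.96 in the authors' deposited table. Psmb7, the trypsin-like subunit, did otherwise, with RNA values of 0.34 and 0.33, footprints of 0.33 and 0.07, and translation efficiencies of -0.05 and -0.32 in the authors' deposited table. Of the 3 active-site genes, then, 2 had footprints well above RNA at 24 h and 1 did not.

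Among the structural beta subunits, Psmb2 and Psmb3 resembled Psmb6. Psmb2 had an RNA value of 0.26 and a footprint value of 0.87 at 24 h in the authors' deposited table. Psmb3 had an RNA value of -0.05 and a footprint value of 0.47 at 24 h, and its translation efficiency was 0.51 at 24 h and 0.82 at 48 h in the authors' deposited table. Psmb1 and Psmb4 had translation efficiencies from 0.08 to 0.16 across both times in the authors' deposited table.

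RefSeq lists pseudogenes named for 4 of the 42 genes, 6 in all: 1 each for Psma5 and Psmb5 and 2 each for Psmb6 and Psmb7. Reads shared with such copies, above all short footprints, could be assigned differently by the authors' counting, so the values of these genes are uncertain to that extent. Their translation efficiencies at 24 h were 0.60 for Psma5, 1.11 for Psmb5, 0.97 for Psmb6 and -0.05 for Psmb7 in the authors' deposited table, and the part of the copies in them was not tested. Only pseudogenes named for a member were looked for, so copies under other names may exist for any of the 42 genes.

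The inducible counterparts of the active-site subunits are given beside them because they occupy the same places in the core. In the authors' deposited table, RNA at 24 h was 3.80 for Psmb8, the counterpart of Psmb5, 3.44 for Psmb9, the counterpart of Psmb6, and 2.21 for Psmb10, the counterpart of Psmb7. The inducible minus the constitutive value was 3.88, 3.44 and 1.87 for RNA and 2.77, 2.50 and 2.79 for footprints in these 3 pairs at 24 h. For translation efficiency the differences were -1.26, -1.02 and 0.81 at 24 h and -0.72, -0.80 and 1.46 at 48 h. In the first 2 pairs the constitutive gene had the higher translation efficiency against untreated cells, and in the third the inducible one had it.

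**Figure D3:**
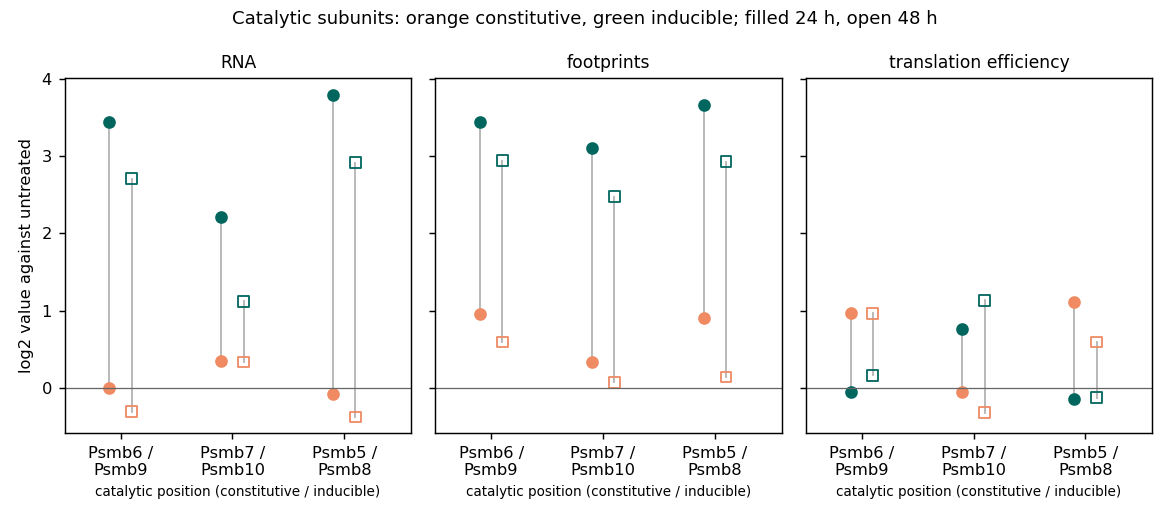
Log2 values against untreated cells of the constitutive active-site subunits Psmb5, Psmb6 and Psmb7 beside Psmb8, Psmb9 and Psmb10, at 24 h and 48 h in panels for RNA, for footprints and for translation efficiency (filled circles 24 h, open squares 48 h). The inducible genes lie above their counterparts in RNA and footprints, for example by 3.88 for Psmb8 over Psmb5 in RNA at 24 h, and below them in translation efficiency for 2 of the 3 pairs.

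The 6 ATPase genes, Psmc1 to Psmc6, whose products unfold the substrate, had lower footprint medians than either ring of the core, while their RNA medians lay between those of the alpha and the beta ring. Their median was 0.33 in RNA and 0.12 in footprints at 24 h, and 0.13 and 0.21 at 48 h. Psmc5 was the 1 gene of the 6 that was higher in footprints (17.2% and 17.7% of all genes were), with values of 0.58 and 0.55 in the authors' deposited table. Psmc3 had the lowest RNA of the ring, -0.26 at 24 h and -0.50 at 48 h, with footprints of -0.06 and -0.14 in the authors' deposited table. Psmc6 had the highest RNA of the ring, 0.45, and the lowest translation efficiency of the 42 genes at 24 h, -0.40, in the authors' deposited table. The median translation efficiency of the ring was -0.21 at 24 h and 0.08 at 48 h. The value at 48 h was above that at 24 h for 6 of 6 genes (51.7% of all genes), by 0.16 to 0.33. The same direction was found for 6 of the 8 genes of the chaperonin CCT, another large complex. It was found for 6 of the 9 genes of the COP9 signalosome and 5 of the 13 of the translation factor eIF3. The median difference was 0.23 for the ATPases, 0.21 for CCT, 0.12 for the COP9 signalosome and -0.07 for eIF3.

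The base subunits without ATPase activity did not behave alike. Psmd1 and Psmd2, the large scaffold proteins of the base, had RNA values of 0.49 and 0.37 at 24 h with translation efficiencies of -0.29 and -0.31 in the authors' deposited table. Psmd4, a ubiquitin receptor, had RNA values of -0.16 and -0.31, footprint values of 0.45 and 0.42, and translation efficiencies of 0.60 and 0.73 in the authors' deposited table.

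For the 8 lid genes the medians were 0.35 (RNA) and 0.42 (footprints) at 24 h, and 0.28 and 0.38 at 48 h. In RNA 0 of the 8 were higher at either time (14.8% and 16.5% of all genes), and in footprints 2 were higher at 24 h and 1 at 48 h (17.2% and 17.7%), counts that are all near the background. Psmd8 had footprint values of 0.67 and 0.62, and Psmd13 of 0.57 and 0.37, in the authors' deposited table. Psmd14, the deubiquitinase that removes the ubiquitin chain, had RNA values of 0.44 and 0.36 and translation efficiencies of -0.01 and -0.09 in the authors' deposited table. Psmd3 had RNA values of -0.06 and -0.44 and footprint values of 0.35 and 0.40, with translation efficiency at 0.38 and 0.84, in the authors' deposited table. It spans chr11:98682554-98695978, 4204 bp from Csf3, the cytokine gene for G-CSF, which had an RNA value of 10.29 at 24 h in the authors' deposited table and was named after its values were seen.

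Psmd10, also called gankyrin, a chaperone of base assembly that is also known as a binder of cell-cycle regulators, had the highest RNA of the 42 genes at both times. The authors' deposited table gave RNA values of 2.01 (4.03-fold) and 2.04, footprint values of 1.77 (3.41-fold) and 1.64, and translation efficiencies of -0.26 and -0.36. The other base chaperones, Psmd5 and Psmd9, had RNA values of -0.09 and -0.33 at 24 h in the authors' deposited table, so the 3 genes of the group had no common direction.

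Psmd10 spans chrX:140948425-140956711 on the minus strand and overlaps the span of Atg4a, a protease of autophagy on the opposite strand. An annotated start of Atg4a lies 195 bases from that of Psmd10, and Atg4a had RNA values of 1.10 and 1.19 and footprint values of 1.05 and 1.20 in the authors' deposited table. The bases between both starts are shown because the 2 genes share them and both were above 1. They read 5′ to 3′ on the minus strand, with ATTGG, which is CCAAT on the other strand, in capitals at 2 places.
Between Psmd10 and Atg4a, chrX:140956712-140956906, minus strand: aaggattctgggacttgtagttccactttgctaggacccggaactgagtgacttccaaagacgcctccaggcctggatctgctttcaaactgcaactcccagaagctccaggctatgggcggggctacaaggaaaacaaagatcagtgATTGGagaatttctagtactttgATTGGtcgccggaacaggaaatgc
The RNA kit marks strand, per the labels' protocols, but the sources used here do not say whether counting used strand, so reads of the overlapping stretch may have been counted for either gene. Spans of 6 of the 42 genes overlap another protein-coding gene in RefSeq: Psmd10, Psma4, Psmd1, Psme4, Psmf1 and Psmc3ip.

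The chaperones of 20S assembly act in pairs, Psmg1 with Psmg2 and Psmg3 with Psmg4, to build the alpha ring. Psmg4 had RNA values of 1.25 (2.38-fold) and 0.70 and footprint values of 1.45 (2.73-fold) and 0.95 in the authors' deposited table. Its partner Psmg3 had RNA values of -0.35 and -0.68, footprint values of 0.85 and 0.27, and translation efficiencies of 1.64 and 1.46, the highest of the 42 genes at both times, in the authors' deposited table. Within this pair, RNA was thus above untreated cells for one partner and below for the other, while footprints of both were above. The deposited translation efficiency of Psmg3 exceeds its footprint minus RNA value by 0.44 at 24 h and 0.51 at 48 h, which was the largest gap among the 42 genes, so its size is uncertain. Psmg2 had RNA values of 0.37 and 0.38 and footprint values of 0.70 and 0.68, and Psmg1 had footprint values of 0.29 and 0.25, in the authors' deposited table.

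The interferon response element was searched on both strands as GAAA and GAAA with any 2 bases between, and was present in 4 of the 37 promoters (10.8%), those of Psmg4, Psmb3, Psmd4 and Psmd9, and in 3.06% of those of genes in the table and 3.44% of all promoters. The match of Psmg4 is shown because the gene is the only one of the 4 with RNA above 1. The others had RNA below 0 at 24 h and 48 h: -0.05 and -0.20 for Psmb3, -0.16 and -0.31 for Psmd4, and -0.33 and -0.44 for Psmd9. A part of the element in these values was not tested. The match of Psmg4 covers bases 16 to 25 after the start, in capitals.
Psmg4, chr13:34162969-34162998, plus strand: gcgcgcatctGAAAGTGAAAgagcgttccg
The motif of STAT factors, searched as TTCNNNGAA, was present in 2 of the 37 promoters (5.41%), those of Psmd2 and Psmg1, and in 6.75% of those of genes in the table and 8.30% of all promoters.

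Psme3, a nuclear cap of the PA28 family, had RNA values of 0.29 and 0.38 and footprint values of 0.58 and 0.49 in the authors' deposited table. Psme4, the cap also called PA200, had RNA values of -0.25 and -0.05 and footprint values of -0.43 and -0.35 in the authors' deposited table. Psmf1, first described as a proteasome inhibitor, had RNA values of -0.05 and -0.22 and footprint values of 0.16 and 0.28 in the authors' deposited table. Psme1 and Psme2, the inducible PA28 subunits, had RNA values of 2.52 and 2.31 at 24 h in the authors' deposited table. Psmc3ip was the lowest of the 42 genes in RNA, with values of -1.02 and -0.999, and in footprints, with -0.70 and -0.81, in the authors' deposited table.

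Several genes had footprints above untreated cells without RNA above them. Among genes whose RNA lay from -0.1 to 0 at 24 h, footprints were above 0 for 6 of 7 members and for 436 of 948 of all genes (46.0%). Among genes with RNA from -0.5 to -0.1 this held for 3 of 5 members and for 973 of 2833 of all genes (34.3%). At 48 h it held for 0 of 2 members (44.7% of all genes) and for 7 of 8 (34.6%) in the same ranges of RNA. With 2 members in the first range, no direction beside all genes can be read from it. Of the 13 genes with an RNA value below 0 at 24 h, 9 had a footprint value above 0, and at 48 h 8 of 13 did. Over all genes with RNA below 0 the shares were 25.1% and 26.1%. These take in RNA values down to -6.43 at 24 h, so the narrower ranges above are the closer comparison. Among the 31 subunits of the core and cap, 7 had RNA below 0 at 24 h and 6 of these had footprints above 0. These 6 were Psmb3, Psmb5, Psmb6, Psmd3, Psmd4 and Psmd13. The RNA of the 7 was no lower than -0.26, within the narrower ranges, where the shares of all genes were 46.0% and 34.3%. Since translation efficiency is a ratio with RNA below the line, a low RNA value by itself raises it.

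**Figure D4:**
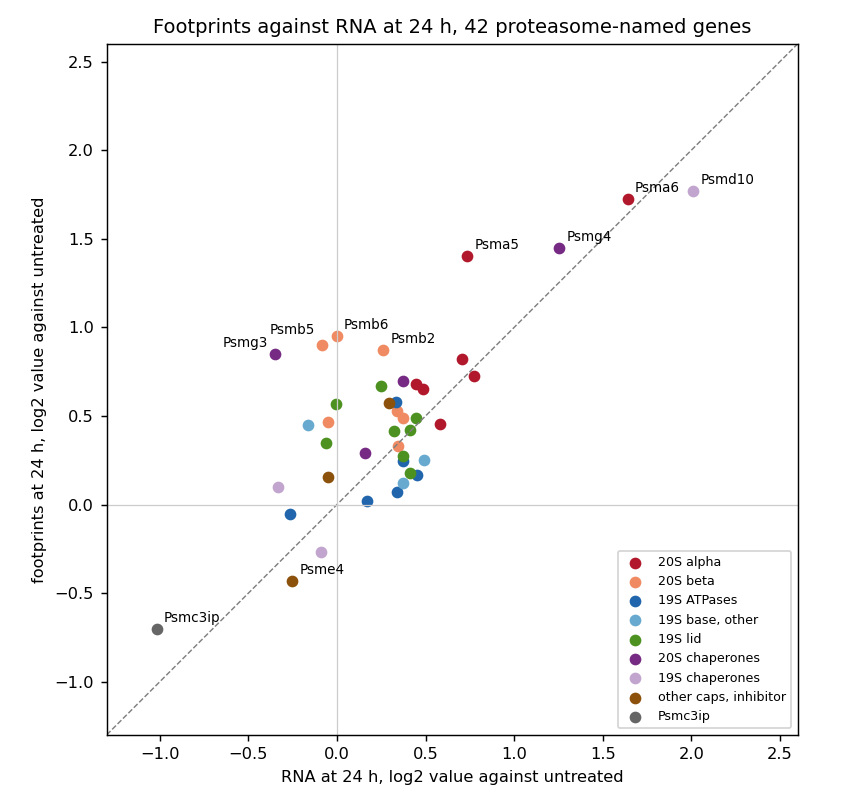
Log2 footprint value against log2 RNA value, both against untreated cells, for each of the 42 genes at 24 h, with a dashed line where they are equal. Most genes lie between 0 and 1 on both axes, Psmd10 and Psma6 lie high on both, and Psmg3, Psmb5 and Psmb6 lie well above the line with RNA at or below 0. Colours give the role.

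Across the 42 genes, footprint and RNA values had a Pearson r of 0.748 and a Spearman rho of 0.449 at 24 h, and 0.754 and 0.507 at 48 h, as a description. The points of one time share all their libraries. Without Psma6, Psmd10, Psmg4 and Psmc3ip, r over 38 genes was 0.364 and 0.385, so the higher r rested on these 4 genes, which were picked after their values were seen. Spearman's rho over the 38 genes was 0.256 and 0.340. Over all genes r was 0.918 and 0.909, and rho was 0.780 and 0.754. The SD of RNA values at 24 h was 1.17 over all genes and 0.51 over the 42, so these r values were not taken over a like range.

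The 31 subunits are made into one particle, and their RNA values were nevertheless spread. Their standard deviation over genes was 0.35 in RNA at 24 h, beside 0.15 in the 9 genes of the COP9 signalosome, 0.21 in the 13 of the translation factor eIF3 and 0.17 in the 8 of the chaperonin CCT, which are other large complexes of fixed make-up. Without Psma6 the value over the remaining 30 subunits was 0.26. Within the proteasome groups it was 0.40 in the alpha ring, or 0.14 without Psma6, 0.20 in the beta ring, 0.26 in the ATPases, 0.35 in the 3 other base subunits and 0.20 in the lid. Leaving out Psma6 was chosen after its values were seen. In RNA at 48 h the spread was 0.40 for the 31 subunits, or 0.33 without Psma6, beside 0.21 for the COP9 signalosome, 0.31 for eIF3 and 0.21 for CCT. In footprints at 48 h it was 0.34, or 0.26 without Psma6, beside 0.34, 0.32 and 0.14 in the same order. The wider spread of the proteasome was thus not seen in every column. In translation efficiency at 24 h the spread was 0.39 for the 31 subunits, 0.33 for the COP9 signalosome, 0.38 for eIF3 and 0.22 for CCT. The median RNA value at 24 h was 0.37 for the 31 subunits, 0.25 for the COP9 signalosome, 0.19 for eIF3 and 0.36 for CCT. Median footprint values were 0.47, 0.36, 0.28 and 0.17 at 24 h in the same order, and 0.42, 0.44, 0.19 and 0.22 at 48 h. Median translation efficiencies were 0.08, 0.12, -0.0015 and -0.24 at 24 h, and 0.13, 0.32, 0.03 and -0.13 at 48 h. The COP9 signalosome was thus above the subunits in footprints at 48 h and in translation efficiency at both times. No test of these differences was possible.

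Median translation efficiency was highest in the genes of shortest span, a feature that the choice of genes did not use. The 5 genes with a span under 5000 bp (2535 to 3876 bp) had a median translation efficiency of 0.97 at 24 h and a range from 0.08 to 1.64. Psmg3, Psmb5 and Psmb6 had the high values, which are uncertain for the reasons given above. Psmb4 and Psmc3ip were at 0.08 and 0.10, below the median of the genes of middle span. The 25 genes from 5000 to under 20000 bp had a median of 0.12, and the 12 genes of 20000 bp or more had a median of -0.03. At 48 h the medians were 0.59, 0.11 and 0.05, from the shortest to the longest spans. Spearman's rho between translation efficiency and span was -0.339 at 24 h and -0.423 at 48 h over the 42 genes, and -0.308 and -0.276 over 11712 genes with a span, so a negative rho was also found over all genes.

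**Figure D5:**
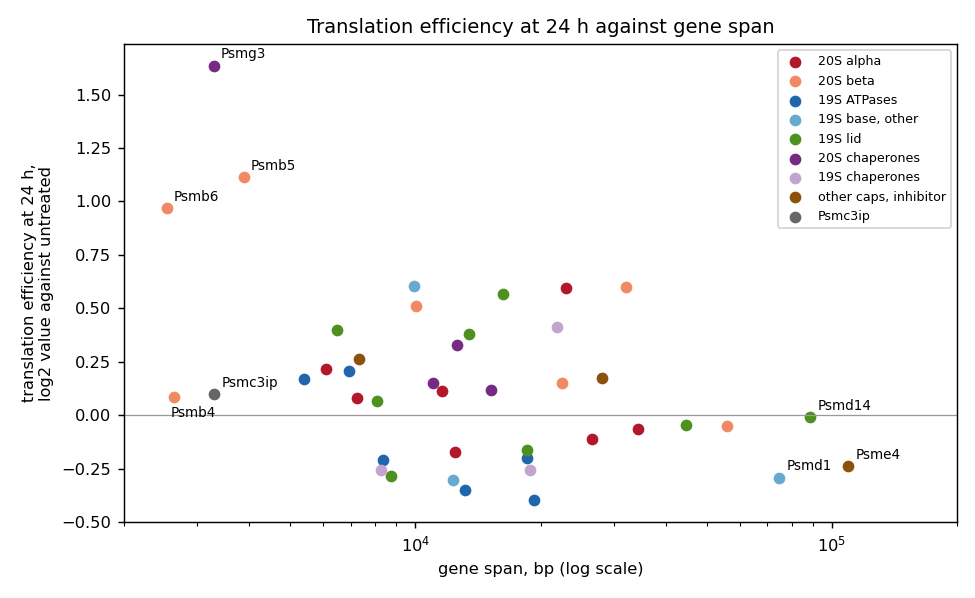
Log2 translation efficiency against untreated cells at 24 h for each of the 42 genes against the span of the gene in bp, from start to end, on a log axis. Psmg3, Psmb5 and Psmb6 lie at the short end with values from 0.97 to 1.64, and Psmb4 and Psmc3ip lie there at 0.08 and 0.10. The genes of 20000 bp or more have a median of -0.03.

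Between 24 h and 48 h, RNA of nearly every subunit was nearer to the untreated level or further below it. The 48 h minus the 24 h value had a median of -0.11 over the 42 genes and was below 0 for 34 of them (51% of all genes), and among the 31 core and cap subunits it was below 0 for 30. The exception was Psmb1. In the other complexes the RNA difference was below 0 for 7 of 8 CCT genes, 6 of 9 COP9 signalosome genes and 6 of 13 eIF3 genes. Each difference was small, with a range over the 42 from -0.55 for Psmg4 to 0.20 for Psme4, and both values rest on the same untreated libraries. For footprints the median difference was -0.03, with 24 of 42 below 0 (49.4% of all genes), and for translation efficiency it was 0.04, with 20 of 42 below 0 (48.3%). The footprint values with the largest drops were those of Psmb5 (-0.76), Psmg3 (-0.58) and Psmg4 (-0.50). In the 5 inducible genes the RNA difference had a median of -0.74, and 5 of 5 were at or below -0.5 (3.42% of all genes).

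Genes that act with the proteasome but lie outside the name rule were taken from a list of which 6 were in the table. Pomp, which matures the 20S core, was the highest of them, with RNA values of 0.69 and 0.51 and footprint values of 1.20 and 0.71 in the authors' deposited table. Adrm1, a ubiquitin receptor of the cap, had RNA values of -0.11 and -0.32 and translation efficiencies of 0.41 and 0.72 in the authors' deposited table, like those of the receptor Psmd4. The deubiquitinases of the cap differed from each other, Usp14 having footprint values of 0.19 and 0.26 and Uchl5 of -0.07 and -0.53 in the authors' deposited table.

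Of 6 regulators of proteasome genes, 2 were higher in RNA at 24 h, Nfe2l2 and Stat3 (14.8% of all genes), and 0 were lower (21.1%). At 48 h, 2 were higher (16.5%) and 1, Foxo4, was lower (22.8%). Nfe2l1 had RNA values of 0.46 and 0.15 and footprint values of 0.39 and 0.24 in the authors' deposited table. Its activators were close to 0 in RNA at 24 h, the protease Ddi2 at 0.03 and the deglycosylating enzyme Ngly1 at 0.11, in the authors' deposited table. Nfe2l2, the regulator of the antioxidant response, had RNA values of 1.01 and 0.87 and footprint values of 0.48 and 0.25 in the authors' deposited table. Stat3, the mediator of interleukin-6 family signals, had RNA values of 0.90 and 0.93, and Foxo4 of -0.44 and -0.57, in the authors' deposited table. The 16 measured genes of ubiquitin, its E1 enzymes and substrate delivery had medians of 0.24 for RNA and 0.11 for footprints at 24 h, with 3 of 16 higher in each (14.8% and 17.2% of all genes), counts near the background. Their footprint median lay nearer to that of all genes (0.01) than the proteasome median (0.46) did.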

How the data were processed

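The files hold RNA-seq and ribosome footprint results for 18 libraries. Per the submitters' processing notes, mm10, TopHat2 and featureCounts were used, with no versions. The authors deposited log2 values against untreated cells, per the file headers, with 6 value columns for 12205 genes. Normalization, the combination of batches and the use of strand in counting are not given in the sources used here. Translation efficiency has a header that names no scale. It was read as log2, since it lay within 0.1 of footprint minus RNA in 79.5% (24 h) and 78.0% (48 h) of all genes, and in 37 and 38 of the 42 members. Undigested RNA was made into libraries with a stranded total RNA kit per the labels' protocols, while the molecule label reads polyA RNA, and which applied was not resolved.

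Medians, counts past 0.5, SDs over genes, differences between times and correlations were computed from these values with Python 3.11.15, pandas 2.3.3, numpy 2.4.6 and scipy 1.17.1, figures were drawn with matplotlib 3.10.9, and the summaries were tested on simulated data. All genes were kept, and the table has 0 missing values. A test across batches could not be run, since the table holds 1 value per gene and comparison. The 42 members and all lists were chosen with earlier results of these data known. Every member was named where a result turned on it: the highest and lowest in each column, those past 1, the active-site subunits and those whose 3 values did not add up within 0.5. Of the gene IDs, 12201 of 12205 matched the table of gene names, and 42 of 42 members matched RefSeq on GRCm38.p6 by symbol, the source of spans, neighbours and promoters. The tissue-specific subunits Psma8 and Psmb11 were not analysed here. Alternatives were limits of 1 and 0.25, means, other sets of members, centring on the median of all genes and footprint minus RNA in place of the deposited translation efficiency.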

Additional observations from a re-analysis of the deposited data

How the results depend on the processing

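Of 129 values recomputed under the alternatives, 99 stayed within 0.1 (medians) or 1.5 times (counts) of the value given above, 30 moved and 0 reversed. A count has no sign, so only a median could reverse. Leaving out members that did not add up within 0.5 removed none at 24 h, where 42 of 42 did add up, so those values had to stay. No median moved by more than 0.1, but that tolerance is wider than the smallest medians, the 48 h minus 24 h values of -0.03 for footprints and 0.04 for translation efficiency. The median translation efficiency at 48 h, 0.11, became 0.19 as a mean and 0.17 as footprint minus RNA. The 48 h minus 24 h median of translation efficiency, 0.04, became 0.10 over the 31 subunits and 0.07 without the overlapping members, and that of footprints, -0.03, became -0.08 as a mean. The counts moved mainly with the limit. At a limit of 1, the members that were higher numbered 3 (RNA at 24 h), 2 (RNA at 48 h), 4 (footprints at 24 h), 3 (footprints at 48 h), 2 (translation efficiency at 24 h) and 1 (at 48 h). In that order of comparisons, 26, 21, 30, 28, 13 and 15 were higher at a limit of 0.25, and 5, 8, 3, 2, 7 and 6 were lower. At a limit of 1, 0 were lower in RNA at 48 h, in footprints at either time and in translation efficiency at 48 h. Without Psmc3ip, 0 members were lower in RNA at 24 h and in footprints at either time, and the same counts of 0 came without the 6 members that overlap another gene, Psmc3ip among them. Both of these alternatives were chosen after seeing the data. The 1 member lower in translation efficiency at 48 h, Psma3, was not past the limit after centring (0) or with footprint minus RNA (0). No paired analysis was possible because the deposited table holds no values per batch, and for the same reason no batch could be left out. The depth of the libraries and the spread between batches are unknown, so small differences between members, or between both times, may be no larger than the error.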
